A study of Mus musculus with 3 samples.

Results

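Some droplets of the GiprEYFP+ library held transcripts of endothelial cells (ECs) and of pericytes together, and their whole profile was described. The members were selected on measured values in the raw count matrices. A barcode had to hold at least 3000 transcripts counted by unique molecular identifier (UMI), at most 20% of them from mitochondrial genes, at least 10 UMIs of Cldn5, at least 3 each of Kcnj8 and Abcc9, and fewer than 30 of Acta2. These endothelial-pericyte droplets numbered 643 of the 8082 barcodes of the series that passed the UMI and mitochondrial limits. Of them, 632 came from the GiprEYFP library, 11 from Glp1rEYFP replicate 1 and 0 from Glp1rEYFP replicate 2. The levels of Cldn5, Kcnj8, Abcc9 and Acta2 are therefore a description of the choice, as is a mitochondrial share within the limit. No other nuclear gene entered it.

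The samples were hindbrain cells of male GiprEYFP or Glp1rEYFP mice aged 4 to 6 weeks, with tissue pooled from 4 to 6 mice for a suspension. In these mice Cre recombinase, produced where the Gipr or the Glp1r gene is or has been active, switches on the yellow fluorescent protein EYFP, so that a cell keeps the reporter after the receptor gene has fallen silent. Tissue between -6.00 and -8.12 mm from Bregma was digested with papain, and cells were sorted on EYFP, on the nuclear dye DraQ5 and on forward-scatter pulse width, a gate meant to keep single particles. Each library was made once with 10x Genomics 3′ chemistry, 1 from GiprEYFP mice and 2 from Glp1rEYFP mice, and droplets of a library are not replicates of it. The libraries held 62705038, 27277448 and 13568994 UMIs over all barcodes. The GiprEYFP and Glp1rEYFP replicate 1 libraries shared 3 barcodes of at least 3000 UMIs and GiprEYFP and Glp1rEYFP replicate 2 shared 2, none of them a member. Intervals below are exact 95% intervals that cover counting error alone.

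Capillaries of the brain are tubes of ECs joined by tight junctions, of which claudin-5, the product of Cldn5, is a main component. Pericytes lie on the outer face of the tube, embedded in the basement membrane that they share with the ECs, and touch them through peg-and-socket contacts. Brain pericytes carry an ATP-sensitive potassium channel made of the Kcnj8 pore and the Abcc9 sulfonylurea receptor subunit, and make vitronectin from Vtn. Contractile smooth muscle, which wraps arterioles, is marked by Acta2.

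To ask whether the members' profile was a mixture of the profiles of ECs and pericytes, they were set against droplets of the same library that met only 1 side of the gate. Endothelial only droplets had at least 10 UMIs of Cldn5 and at most 1 each of Kcnj8 and Abcc9. Pericyte only droplets had at least 3 each of Kcnj8 and Abcc9 and at most 2 of Cldn5. The GiprEYFP library held 706 and 1197 of them. Glp1rEYFP replicate 1 held 77 and 5, and Glp1rEYFP replicate 2 held 16 and 0. In the GiprEYFP library the members made up 14.8% of the 4258 barcodes that passed the UMI, mitochondrial and Acta2 limits (13.8 to 15.9%, Clopper-Pearson). The share was 1.58% of 695 barcodes in Glp1rEYFP replicate 1 (0.793 to 2.81%). In Glp1rEYFP replicate 2 it was 0 of 377, which allows a share of up to 0.796% when 3 droplets are taken as the limit, with an exact interval up to 0.974%. The Acta2 limit removed 454 barcodes of the GiprEYFP library, 1490 of Glp1rEYFP replicate 1 and 808 of Glp1rEYFP replicate 2. Over all barcodes that passed the UMI and mitochondrial limits, with those removed kept in the denominator, the shares were 13.4%, 0.503% and 0%. The cells had been sorted on EYFP from different reporter lines, and the part of the sort in these shares was not tested. Barcodes of at most 100 UMIs, which hold free RNA, had 1602 UMIs of Acta2 per 1000000 (CPM) in the GiprEYFP library and 15339 CPM in Glp1rEYFP replicate 1, and whether free RNA moved barcodes past that limit was not tested.

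Members had a median of 29 UMIs of Cldn5 (quartiles 20 and 39), where endothelial only droplets had 28 (quartiles 21 and 38). They had a median of 9 UMIs of Kcnj8 and 13 of Abcc9, where pericyte only droplets had 8 and 10. Just inside the Cldn5 threshold, 35 members had 10 to 12 UMIs, with 9599 CPM of Vtn. Just outside it, 36 droplets with 7 to 9 UMIs and the same pericyte counts had 12266 CPM of Vtn. On the pericyte side, 51 members had 3 UMIs of the scarcer of Kcnj8 and Abcc9, with 1123 CPM of the EC transporter gene Slco1c1. The 58 droplets with 2 UMIs of the scarcer gene had 1055 CPM. Vtn was thus higher outside the Cldn5 threshold than inside it, and Slco1c1 nearly level across the pericyte threshold.

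The depth of the members was near the sum of the depths of both classes. Median UMIs per droplet were 13094 in the members (quartiles 11009 and 15400, range 3732 to 62112), 7185.5 in endothelial only droplets (quartiles 5968 and 9061) and 5022 in pericyte only droplets (quartiles 4099 and 5984). The sum of the latter medians was 12207.5, so that the members held 1.07 times that sum, with a 95% interval of 1.06 to 1.09 from the ranks of the members' UMIs around their median. They held 1.82 times the median of endothelial only and 2.61 times that of pericyte only droplets. The minimum of 3000 UMIs truncated the pericyte only class. The gates also act on depth. Members had to reach the minima of Cldn5, Kcnj8 and Abcc9 together, while the other classes had to stay within maxima of 1 or 2 UMIs. The part of the gates in the depth ratio was not tested. With a minimum of 5000 UMIs for all classes the ratio was 0.966. The number of genes detected per droplet had medians of 4441.5 in members, 2951.5 in endothelial only and 2350 in pericyte only droplets. After each droplet was thinned at random to 3000 UMIs the medians were 1744, 1659 and 1637 genes. Mitochondrial genes gave a median of 2.73% of UMIs in the members, between 2.83% in endothelial only and 2.54% in pericyte only droplets.

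**Figure D1:**
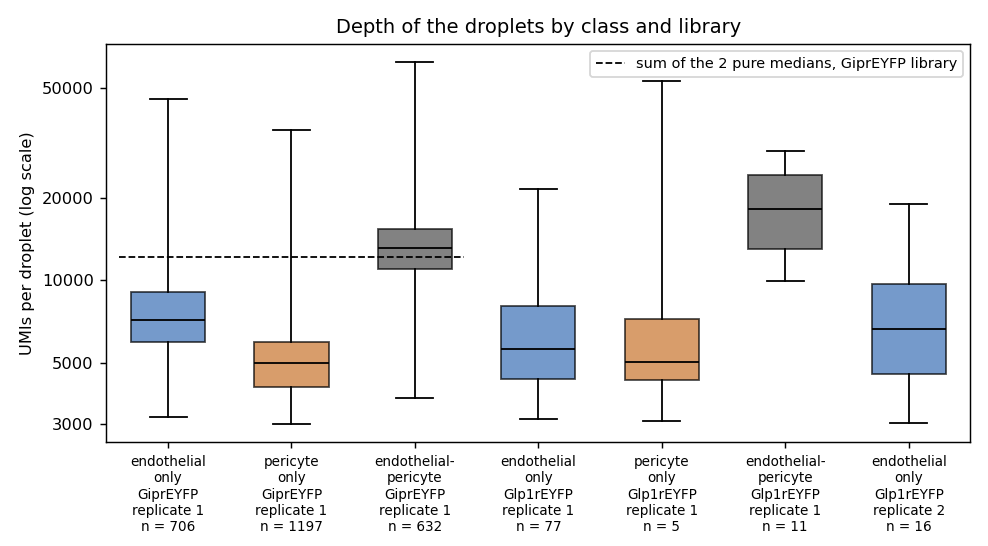
UMIs per droplet (log scale) by class and library. Boxes give quartiles and median, whiskers the lowest and highest droplet, and the dashed line the sum of the endothelial only and pericyte only medians of the GiprEYFP library, 12207.5 UMIs. The members' median of 13094 lies just above that line.

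The summed profile of the 632 members was close to a weighted sum of both profiles. Over 8944 genes with a mean of at least 10 CPM over the 3 classes, with the gate genes, EYFP and mitochondrial genes left out, the weight with the highest multinomial likelihood gave 41.5% of UMIs to the pericyte profile (95% likelihood interval 41.5 to 41.6%) and 58.5% to the EC profile. All but 20 of these genes lay within 1.5-fold of the prediction, with 5 CPM added to each value. The log2 ratio of observed over predicted CPM had a median of 0.02 and an SD of 0.19 across genes. By the same rule of size, 686 genes lay at least 2-fold from the endothelial only profile and 1105 from the pericyte only profile, against 15 from the mixture. Those 15 were 1 gene above it (0.0112% of the genes) and 14 below it (0.157%). The share of UMIs that would have to move between genes to turn the members' profile into another was 3.26% for the mixture, 14.3% for the endothelial only and 20.7% for the pericyte only profile. Pearson's r of log2 CPM across the 8944 genes was 0.990 with the mixture, 0.898 with the endothelial only and 0.851 with the pericyte only profile, and 0.613 between the latter profiles. Genes are not independent replicates, and the weight was set on the same UMIs, so these values describe 1 library and carry no test.

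**Figure D2:**
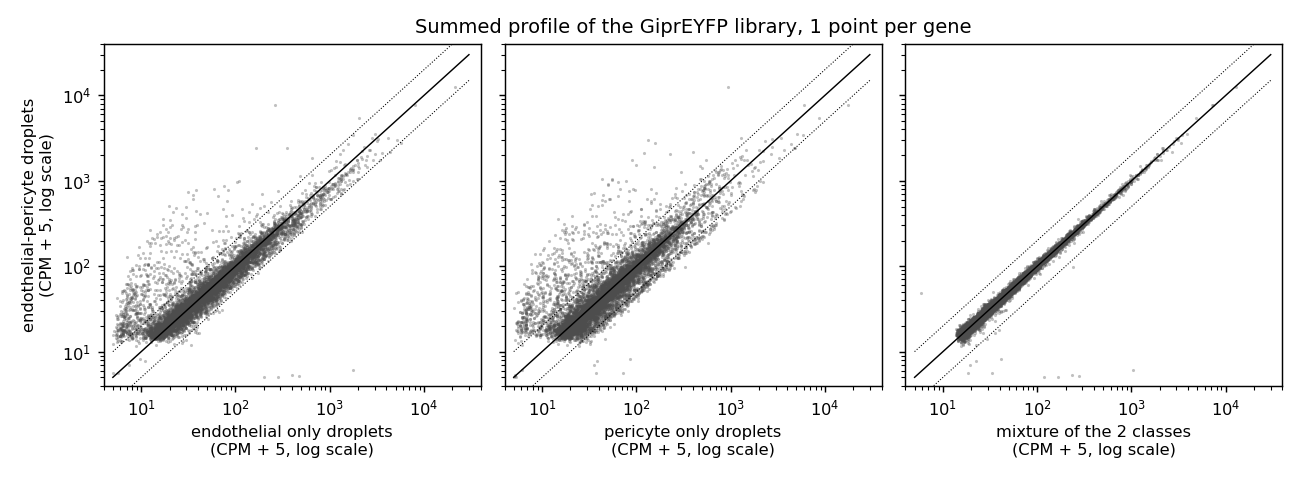
Summed CPM of the endothelial-pericyte droplets (vertical axis) against endothelial only droplets, pericyte only droplets and their mixture at a pericyte weight of 41.5% (horizontal axes), each with 5 CPM added and on log scales. Each point is 1 of 8944 genes, the solid line marks equality and the dotted lines a 2-fold difference, past which lie 686, 1105 and 15 genes.

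EC genes outside the gate were present near the level that the mixture gives. They were among the genes on which the weight was fitted, so this closeness is no separate check of it. None of the 24 EC markers lay 2-fold from the prediction, beside 15 of all 8944 genes. Of the markers 8 were above and 16 below the prediction, and their median log2 ratio was -0.02, beside 0.02 over all genes. Slco1c1, a thyroid hormone and anion transporter of brain ECs, stood at 1012 CPM in the members (992 to 1034), against 958 predicted, 1602 in endothelial only and 50.1 in pericyte only droplets. Flt1, a receptor for vascular endothelial growth factor, stood at 2032 CPM against 1840 predicted. Ly6c1, a surface antigen of ECs, had the lowest ratio of the list, with 2794 CPM against 3365 predicted, a log2 ratio of -0.27. Abcb1a, the efflux pump P-glycoprotein of the blood-brain barrier, had the highest, with 674 CPM against 590 predicted, a log2 ratio of 0.19.

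Pericyte genes outside the gate, which also entered the fit of the weight, were likewise near the mixture. Of the 18 markers, 9 were above the prediction, 9 below and none 2-fold away, beside 15 of all 8944 genes. Their median log2 ratio was 0.01. Vtn stood at 7649 CPM in the members (7592 to 7707), against 7396 predicted, 257 in endothelial only and 17451 in pericyte only droplets. Pdgfrb, the receptor through which pericytes receive platelet-derived growth factor B, stood at 786 CPM against 789 predicted. Rgs5, a regulator of G protein signalling abundant in pericytes, was the highest of the list above its prediction, with 5384 CPM against 4778 and a log2 ratio of 0.17. Of the gate genes, which were not used for the weight, Kcnj8 was at 1.08 times and Abcc9 at 1.17 times the predicted CPM, and Cldn5 at 0.987 times.

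Counted per droplet instead of as CPM, the members were near the sum of the classes. The gates act on depth as given above, and their part in these counts was not tested. The mean UMIs of a gene per member, divided by the sum of its means in endothelial only and pericyte only droplets, had a median of 1.06 over the 8944 genes, 1.02 over the EC markers and 1.07 over the pericyte markers. Vtn had a median of 101 UMIs per member and 90 per pericyte only droplet. Slco1c1 had a median of 13 UMIs per member and 12 per endothelial only droplet. Members held UMIs of a median of 23 of the 24 EC markers and 17 of the 18 pericyte markers. The lowest count in any member was 16 for the EC list and, taken separately, 10 for the pericyte list. Endothelial only droplets held medians of 23 and 3, and pericyte only droplets of 5 and 16.

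Within single droplets the pericyte share of UMIs was estimated from both marker lists, with the class profiles as end points. The members had a median share of 43.4% (quartiles 37.1 and 50.4, range 4.90 to 90.5%), and 622 of 632 lay between 20 and 80%. The 10th and 90th percentiles were 30.3 and 58.6%. The medians were 0% in endothelial only and 100% in pericyte only droplets, of which 15 of 706 and 28 of 1197 lay between 20 and 80%. Droplets with counts between the gates were in no class. They included 199 with at least 10 UMIs of Cldn5 and Kcnj8 and Abcc9 between the limits. Another 133 had 3 to 9 UMIs of Cldn5 and at least 3 each of Kcnj8 and Abcc9. The gaps between the classes are thus in part set by the gates. Multiplied by its UMIs, the share gave a median pericyte part of 5629 UMIs in a member, beside the 5022 UMIs of a pericyte only droplet. The EC part had a median of 7205 UMIs, beside 7185.5 in an endothelial only droplet.

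**Figure D3:**
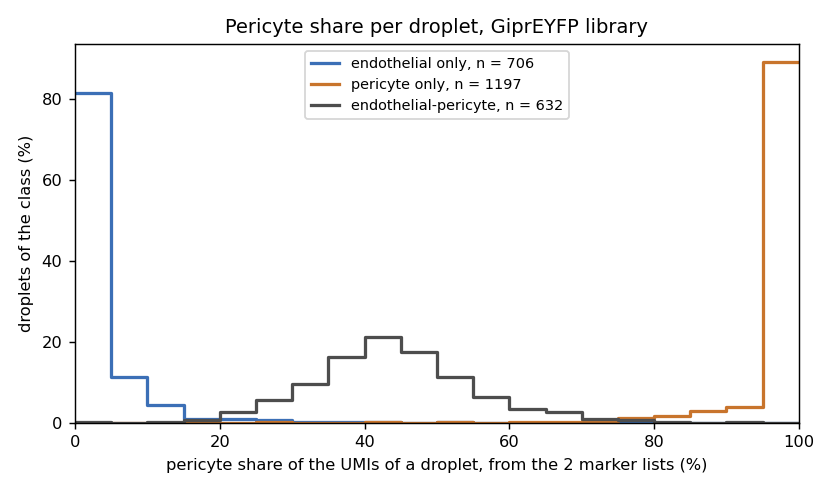
Pericyte share of the UMIs of each droplet (%, horizontal axis), estimated from the 24 EC and 18 pericyte markers outside the gate, as the percent of droplets of each class in bins of 5 percentage points. The members form 1 peak around their median of 43.4%, apart from the classes at 0 and 100%. Droplets with counts between the gates were in no class and are not shown.

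Genes at the interface of both cell types lay near the mixture, as most genes did. Of 18 genes of signalling between ECs and pericytes, 17 reached the level to be compared and none lay 2-fold away (7 above, 10 below, median log2 ratio -0.01). Of all 8944 genes only 15 lay 2-fold away, so this count does not set the list apart. Pdgfb, the growth factor by which ECs recruit pericytes, stood at 144 CPM against 135 predicted. UMIs of Pdgfb and of its receptor gene Pdgfrb met in 504 of 632 members (79.7%, 76.4 to 82.8%), in 11.2% of endothelial only and 4.26% of pericyte only droplets. Dll4, an EC ligand of Notch receptors, and Notch3, the Notch receptor of mural cells, met in 30.2% of members, beside 3.54% and 2.09%. Jag1, another Notch ligand, met Notch3 in 274 of 632 members, 30 of 706 endothelial only and 335 of 1197 pericyte only droplets. Tek, the Tie2 receptor of ECs, and its ligand gene Angpt1 met in 4.27%, 0.708% and 0.501%. These shares rise with depth, which differed between the classes as given above. Members were also chosen to hold transcripts of both cell types, and each other class to lack gate genes of 1 type. The shares therefore describe the choice. Taken singly, Pdgfb had UMIs in 79.9% of members and Pdgfrb in 99.7%, Dll4 in 33.2% and Notch3 in 91.6%. The widest gaps of the list were those of Angpt2 and Edn1. Angpt2, an antagonist of the Tie2 receptor, stood at 17.5 CPM against 13.0 predicted. Edn1, the vasoconstrictor endothelin-1, stood at 78.7 CPM against 99.9.

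Of 10 junction genes 8 were above the prediction and none was 2-fold away (median log2 ratio 0.05), beside 15 of all 8944 genes that were. Cdh2, the N-cadherin of contacts between ECs and pericytes, stood at 190 CPM against 181 predicted. Cdh5, the cadherin between ECs, stood at 510 CPM against 530. Basement membrane genes lay above the prediction in 12 of 14 cases, by small amounts (median log2 ratio 0.07). Fn1, which encodes fibronectin, led them with 570 CPM against 475 predicted, a log2 ratio of 0.26. Lamc1, a laminin chain, had 458 CPM against 397, and Lama5, the laminin chain of ECs, had 19.4 CPM against 21.2. Over all 8944 genes 5217 lay above the prediction, with a median log2 ratio of 0.02.

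Lists for the segments of the vascular tree differed in sign. All 8 arterial genes compared lay below the prediction, with a median log2 ratio of -0.39, while capillary genes had a median of 0.10 (4 of 6 above) and venous genes of 0.10 (3 of 5 above). The arterial genes were the lowest of the EC lists, and 1 of them, Stmn2, lay past 2-fold. Its prediction of 30.4 CPM drew in part on 25.1 CPM in pericyte only droplets. In that class 1 droplet held 86 UMIs of Stmn2, 52.1% of the class's UMIs of this gene. Gkn3, a gene of arterial ECs, stood at 11.7 CPM in the members (9.55 to 14.2), against 21.7 predicted and 36.4 in endothelial only droplets. Bmx, a tyrosine kinase of arterial endothelium, stood at 6.96 CPM (5.34 to 8.93) against 17.3 predicted. Sema3g, a secreted semaphorin, stood at 25.4 CPM (22.2 to 28.9) against 40.2. UMIs of Gkn3 were seen in 24 of 632 members and in 46 of 706 endothelial only droplets, and UMIs of Bmx in 24 and 58. The list's most abundant genes, Mgp and Gja4, were higher in pericyte only than in endothelial only droplets and lay near the prediction, at 955 CPM against 983 and 147 against 152. In the 33 droplets of the GiprEYFP library with at least 10 UMIs of Cldn5 that the Acta2 limit removed, Gkn3 stood at 679 CPM and Bmx at 251 CPM, beside 4828 CPM of the smooth muscle gene Tagln. The same limit applied to the endothelial only droplets, and with Acta2 under 5 in all classes the arterial median was -0.41. The part of the Acta2 limit in the arterial values was not tested. Among the venous genes compared, the highest ratio was that of Slc38a5, a glutamine transporter, at 157 CPM against 124 predicted. Among the capillary genes it was that of Tfrc, the transferrin receptor of brain capillaries, at 289 CPM against 259.

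Early response genes, which tissue digestion induces, lay a little below the mixture, with 12 of the 18 compared below it and a median log2 ratio of -0.08. Dusp1, a phosphatase of this response, was the lowest at 145 CPM against 190 predicted, and Klf6 was the highest at 271 CPM against 248. Klf2, a flow-induced regulator of ECs and the list's most abundant gene, stood at 1032 CPM against 1181.

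**Figure D4:**
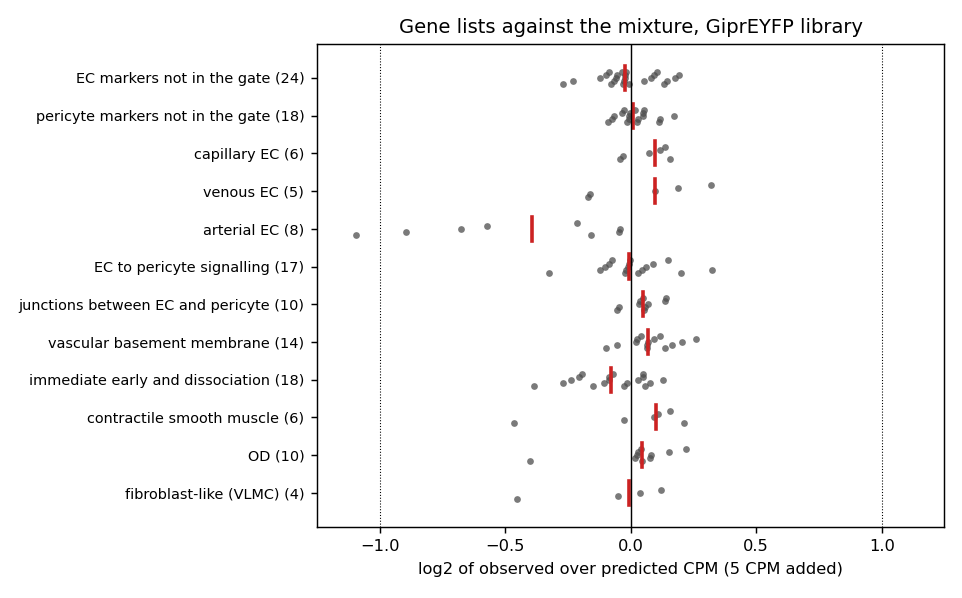
Log2 ratio of observed over predicted CPM (5 CPM added) for the genes of 12 lists in the GiprEYFP library, with the number of genes compared in brackets. Each point is 1 gene, red bars mark list medians and dotted lines a 2-fold difference, past which lies only the arterial gene Stmn2 among these lists. Of the Stmn2 UMIs of pericyte only droplets, which enter its prediction, 52.1% lay in 1 droplet. The arterial median is at -0.39 and the EC and pericyte marker medians are at -0.02 and 0.01.

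EYFP, which served neither the gate nor the weight, also stood where the mixture placed it. The reporter had 439 CPM in the members (425 to 453, 3908 UMIs), 50.1 CPM in endothelial only droplets (44.4 to 56.3) and 969 CPM in pericyte only droplets (945 to 993). The prediction was 432 CPM, so that observed over predicted was 1.02 (0.986 to 1.05). Barcodes of at most 100 UMIs had 244 CPM, more than endothelial only droplets. A UMI of EYFP was present in 99.1% of members, 25.2% of endothelial only and 97.7% of pericyte only droplets. At 3000 UMIs per droplet these shares became 69.5% (65.7 to 73.0%), 11.5% (9.22 to 14.1%) and 92.6% (90.9 to 94.0%). The median was 5 UMIs of EYFP per member and 5 per pericyte only droplet.

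Ordered by their pericyte share, members carried more EYFP the more of their UMIs were of pericyte genes. The lowest tertile, 211 droplets with shares of 4.90 to 39.4%, had 326 CPM of EYFP (307 to 346), against 343 predicted from its share. The middle tertile had 441 CPM (417 to 466) against 451. The highest tertile, with shares of 47.8 to 90.5%, had 566 CPM (538 to 594) against 565. The intervals of the tertiles did not overlap. Median depth was 13732, 13004 and 12744 UMIs in the same order.

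**Figure D5:**
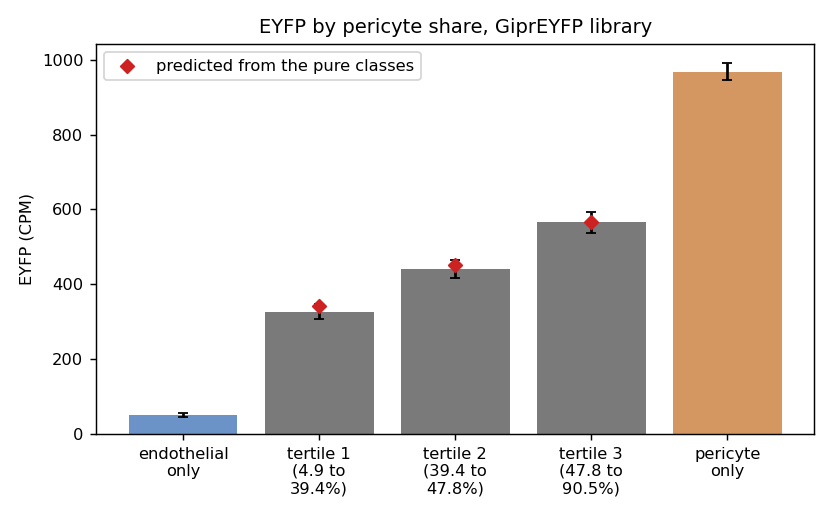
EYFP level (CPM, vertical axis) in endothelial only droplets, in the members by tertile of pericyte share, and in pericyte only droplets of the GiprEYFP library. Bars give summed CPM with exact 95% counting intervals and red diamonds the level predicted from the share, which was 343, 451 and 565 CPM beside 326, 441 and 566 CPM observed.

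The receptor transcripts themselves were scarce. Gipr, the receptor whose gene drives Cre in this line, had 32 UMIs in all members together, 3.59 CPM (2.46 to 5.07), against 3.22 predicted. It had 0.533 CPM in endothelial only and 7.01 CPM in pericyte only droplets, below the 12.9 CPM of barcodes of at most 100 UMIs. A UMI was present in 4.91% of members, 0.425% of endothelial only and 3.68% of pericyte only droplets. Glp1r had 0 UMIs in the members, which allows up to 0.337 CPM (3 UMIs over all members).

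Several of the genes furthest from the mixture rested on few droplets. Ttr, the transthyretin gene of the choroid plexus and the gene above it by 2-fold, had 43.8 CPM against 0.853 predicted, and 97.9% of its 390 UMIs lay in 1 of the 8 members that had any. Among the genes below the mixture were the haemoglobin genes Hbb-bs, Hba-a1, Hba-a2 and Hbb-bt. Hbb-bs had 1.12 CPM in the members, in 10 droplets with 1 UMI each, against 1029 predicted. Its level of 1758 CPM in endothelial only droplets came from 10 droplets, 1 of which held 5488 UMIs. The neuronal genes Chgb, Snhg11, Syt1 and Rtn1 were below, from 10 to 27 pericyte only droplets with UMIs, as were Mt3, Atp1b1, the OD gene Klk6, Ptgds and Stmn2. Ptgds, a prostaglandin synthase abundant in free RNA at 4074 CPM, had 93.6 CPM against 237 predicted, with UMIs in 282 members. When droplets with at least 20 UMIs of any of 5 genes, among them Hbb-bs, Snhg11, Meg3 and Ttr, were left out, 630 members remained, with 0 genes 2-fold above and 3 below the mixture.

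Next after these, and short of 2-fold, the genes above the mixture were Flrt2, Nrgn, Rhbdf2, Gk5, Apln, Prcp, Kbtbd11, H4c4 and 1700052K11Rik. Flrt2, an adhesion protein of the fibronectin-leucine-rich family, had 45.2 CPM (40.9 to 49.8) against 29.3 predicted, a log2 ratio of 0.55, with UMIs in 209 members. Apln, the ligand apelin made by tip cells of growing vessels, had 15.3 CPM (12.8 to 18.1) against 9.89, in 32 members. Each of these 9 genes was seen in 32 to 209 members.

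Markers of other cell types were scarce in the members beside those of ECs and pericytes, and leaving out droplets with them gave a pericyte weight of 41.1% and a log2 ratio of EYFP of 0.022, while genes 2-fold below the mixture went from 14 to 5. The 10 OD genes summed to 2565 CPM in the members, 2508 predicted and 28959 CPM in barcodes of at most 100 UMIs. The 12 contractile smooth muscle genes summed to 1460 CPM against 1357 predicted. Their most abundant gene Myl9, at 987 CPM, is also made by pericytes, Acta2 had 23.7 CPM and Actg2 had no UMI. The 8 neuronal genes summed to 191 CPM against 311 predicted, led by Meg3 and with no UMI of Slc32a1, the 8 astroependymal genes to 50.8 against 53.3, led by Gja1, and the 8 fibroblast genes to 281 against 290, with Lum at 0.337 CPM. The 8 microglial genes summed to 3.26 CPM, and Csf1r, P2ry12 and Ptprc had no UMI. Of 10 cell cycle genes, Pcna was the most abundant, and the list summed to 82.1 CPM against 73.2 predicted.

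Droplets with EC and pericyte transcripts were far more frequent than droplets with transcripts of either type and of oligodendrocytes (ODs), the other abundant type of the GiprEYFP library. With ODs defined by at least 3 UMIs each of Mog and Mag, and each class required to lack the others' genes, the library held 683 EC, 1162 pericyte and 716 OD droplets. Droplets of EC with pericyte numbered 599. Only 4 were EC with OD and 9 were pericyte with OD, and 9 more held all 3. Divided by the product of the numbers of each type alone, this gave 755 EC with pericyte droplets per 1000000 combinations (696 to 818), 8.18 EC with OD (2.23 to 20.9) and 10.8 pericyte with OD (4.95 to 20.5). The EC with pericyte rate was 92.3 times that of EC with OD and 69.8 times that of pericyte with OD. The EC with pericyte droplets were defined by the gate genes, as the members were. Droplets of 1 library are not replicates, so these rates are a description and carry no test. Median depth was 34940.5 UMIs in EC with OD and 33069 in pericyte with OD droplets, beside 23549.5 in OD droplets. In Glp1rEYFP replicate 1, with 76 EC, 5 pericyte and 348 OD droplets, 11 droplets were EC with pericyte, 28947 per 1000000 combinations (14450 to 51795). None was EC with OD, where the interval reached 139, and none was pericyte with OD, where it reached 2120. The order was thus the same in that library, on few droplets, while Glp1rEYFP replicate 2 had no pericyte droplet and gave no rate for ECs with pericytes. How the transcripts of both cell types came to lie in the same droplets was not tested.

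The Glp1rEYFP libraries gave few members to set beside these. The 11 droplets of Glp1rEYFP replicate 1 held 9932 to 29621 UMIs with a median of 18199, 1.70 times the sum of the endothelial only and pericyte only medians of that library. All of them held Vtn, at 44 to 221 UMIs, and Slco1c1, at 6 to 29 UMIs. Summed, they had 5377 CPM of Vtn (5068 to 5701), 718 CPM of Slco1c1 (607 to 842) and 81.3 CPM of EYFP (47.4 to 130), where the 77 endothelial only droplets of that library had 74.2 CPM of EYFP (52.7 to 101) and free RNA had 156 CPM. Of their 17 EYFP UMIs, 8 lay in 1 droplet. The log2 ratio of EYFP to the prediction in that library was 0.14, and it ran from -0.81 without droplets of other cell types to 0.76 with Kcnj8 and Abcc9 at 6 when the profiles of that library were used. With the GiprEYFP profiles as end points, their pericyte share from the marker lists had a median of 30.4% (12.9 to 45.0%). The mixture of their own library could not be described well. Its pericyte profile came from 5 droplets, 1 of which held 14059 UMIs of Ttr among 53199. The fitted pericyte weight was 3.63% with that droplet and 19.4% without it, and it ran from 1.22% with empty droplets as an added profile to 65.3% from the marker lists alone, and 1138 of 8451 genes lay 2-fold from the prediction.

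The test planned over 3 libraries could thus use only the libraries that held members. A quasi-likelihood F test on edgeR's fit of observed against predicted UMIs, with 2 libraries, 1 residual degree of freedom and Benjamini-Hochberg adjustment over 8845 genes, called 1 gene higher (0.0113%) and 0 lower (0%). The gene was Vtn (adjusted p = 0.0243), at 1.03 times its prediction in the GiprEYFP library and 15.5 times in Glp1rEYFP replicate 1, where the pericyte weight was 3.63%. At an unadjusted p under 0.05 the counts were 147 higher and 45 lower. limma called 0 higher and 1 lower, and DESeq2 0 higher and 2 lower. Without the droplet of 14059 Ttr UMIs, edgeR called 7 higher and 1 lower.

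Between genotypes, with 632 droplets in 1 library and 11 in the other, values are given by size and with no test. The Glp1rEYFP members held 209024 UMIs in all, so that a minimum of 30 UMIs on the higher side stood for 144 CPM there and for 3.37 CPM in the GiprEYFP members. Of 11007 genes past it, 1561 were at least 2-fold higher in the members of the GiprEYFP library (14.2%) and 52 were lower (0.472%), with 5 CPM added. With the floor of 144 CPM on both sides, added after seeing the data, 95 of 1574 genes were higher (6.04%) and 52 lower (3.3%), since under the first rule a gene below 144 CPM could be counted only as higher. In pericyte only droplets, with 5 droplets and 72951 UMIs in the Glp1rEYFP library, the first rule gave 4943 higher and 163 lower of 10510 genes, and an equal floor, which there stood at 411 CPM, gave 151 and 163 of 460. Of those 72951 UMIs, 53199 lay in the droplet with 14059 UMIs of Ttr, and no count was made without it. In endothelial only droplets the first rule gave 630 higher and 99 lower of 9743 genes, and an equal floor of 57.0 CPM gave 186 and 99 of 3697. Among the highest ratios were those of the OD genes Ermn, Ugt8a and Cnp, which lay under 144 CPM on both sides, and of Trf, the transferrin gene, which lay above it in the GiprEYFP members. Trf had 314 CPM in the GiprEYFP and 19.1 CPM in the Glp1rEYFP members, the latter from 4 UMIs, with 250 and 41.8 CPM in endothelial only droplets and 2580 and 932 CPM in free RNA. Among the lowest were those of Gkn3, Tagln, Acta2 and Mt1. Gkn3 had 11.7 CPM in the GiprEYFP and 311 CPM in the Glp1rEYFP members, with 36.4 and 641 CPM in endothelial only droplets and 32.8 and 101 CPM in free RNA. Tagln had 12.9 and 316 CPM in the members and 805 and 9919 CPM in free RNA. Genotype and library cannot be told apart in these values, and the part of free RNA in them was not tested.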

How the data were processed

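Per the matrix headers, the authors aligned the reads and counted UMIs with Cell Ranger 4, while the submitters' processing notes name Cell Ranger 6.1.2 and the GRCm39 build. The deposited counts are whole UMIs per gene for 32533 genes and all barcodes, without normalization or cell calling. Members and gene lists were chosen with earlier results of these data known. No doublet caller was run. UMIs were summed per class and library, scaled to CPM, and mixture weights were fitted by multinomial likelihood with scipy 1.17.1, numpy 2.4.6 and pandas 2.3.3. Ratios add 5 CPM. The fit across libraries used edgeR 4.0.16, with limma 3.58.1 and DESeq2 1.42.0 as alternatives, on observed UMIs with the predicted UMIs as offset; it was planned for 3 libraries and run on the 2 that held members, with the quasi-likelihood F statistic computed from edgeR's fit against the offset alone, since edgeR's own test function takes no design of 1 column. Scripts were tested on simulated data. Named were the gate genes, Vtn, EYFP, Gipr, Glp1r, members of the fixed lists, the 10 genes furthest from the mixture each way in the GiprEYFP library (in place of those called in all libraries, which could not be had) and the 5 furthest each way between genotypes. Ptgds, Klk6 and Atp1b1 were chosen after their values were seen. Some genes that the rule would name are not reported here.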

Additional observations from a re-analysis of the deposited data

How the results depend on the processing

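Alternatives were recomputed in the GiprEYFP library unless stated. The pericyte weight of 41.5% became 43.0% with a UMI minimum of 5000, 43.1% and 40.1% with a Cldn5 minimum of 5 and 20, 41.8% with Kcnj8 and Abcc9 at 6, 41.1% without droplets of other cell types, 41.4% with 0 UMIs of the other type allowed in the endothelial only and pericyte only classes or with empty droplets as an added profile, 43.3% from marker lists alone and 41.1% without the droplets high in any of 5 genes, among them Hbb-bs, Snhg11, Meg3 and Ttr (the last chosen after seeing the data). The log2 ratio of EYFP, 0.025, became -0.055 with a minimum of 5000 UMIs and -0.030 with the marker list weight. The depth ratio of 1.07 became 0.966 with 5000 UMIs, 1.04 with a Cldn5 minimum of 5 and 1.09 with those stricter classes. The share of droplets became 19.2% with 5000 UMIs, 16.7% and 11.4% with a Cldn5 minimum of 5 and 20, 10.9% with Kcnj8 and Abcc9 at 6 and 18.7% without other cell types. Genes 2-fold above the mixture numbered 1, and 2 from 1 CPM, 0 from 50 CPM and 0 without the droplets named above. Those below numbered 14, and 5 without other cell types, 6 from 50 CPM and 3 without the droplets named above. The arterial median stayed below 0, from -0.67 to -0.04 (the latter over 2 genes of at least 50 CPM).

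In both libraries with members 3 genes were 2-fold from the mixture in 1 direction, and 1 with Kcnj8 and Abcc9 at 6, 0 without other cell types, 5 from 1 CPM, 1 from 50 CPM and 5 with 1 CPM added. edgeR's calls of 1 higher and 0 lower became 0 higher with 5000 UMIs, either other Cldn5 minimum, Acta2 under 5, without other cell types, the stricter classes, the added profile, 50 CPM, TMM factors, limma and DESeq2. From 1 CPM they became 63 higher and 3 lower, without the high Ttr droplet 7 higher and 1 lower (chosen after seeing the data), and lower calls were 1 with limma and 2 with DESeq2. The genotype counts of 1561 and 52 became 174 and 5 at 4-fold, and 95 and 52 with an equal CPM floor (chosen after seeing the data), which removes genes that only the deeper library could pass. The cause of the other changes was not tested.

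Leaving out a library gave pericyte weights from 3.63 to 41.5%, depth ratios from 1.07 to 1.70, EYFP log2 ratios from 0.025 to 0.14, shares from 1.58 to 14.8% and from 3 to 1138 genes 2-fold away, since without the GiprEYFP library 11 droplets remain. Their weight ran from 1.22% with the added profile to 65.3% from the marker lists. It was 27.7%, and the EYFP log2 ratio -1.90, against the GiprEYFP profiles. The fits across libraries have no residual degree of freedom without either library that holds members, and no genotype value can be had without Glp1rEYFP replicate 1. OD gates of 6 UMIs kept the pair counts within their intervals. No paired analysis was possible because GiprEYFP and Glp1rEYFP share only 1 replicate number. A single library with 632 members sets the limit: intervals cover counting error, not variation between mice or suspensions.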
